A study of Mus musculus with 8 samples.

Results

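The livers described here are those of Cnot3KO mice at embryonic day 16.5 (E16.5) and at postnatal day 3 (d3), chosen by the genotype and age in the sample labels: 4 arrays of the 8 in the series, with 2 at each age. In these mice Cre recombinase is driven by the albumin promoter and removes floxed Cnot3, so the deletion is aimed at cells of the hepatocyte lineage, while blood cells, Kupffer cells, endothelial cells and stellate cells of the same liver keep the gene. By the study's own account the suppression is incomplete at E16.5, so the 2 ages differ in the extent of the knockout as well as in age. The other 4 arrays are livers of control mice at the same ages, whose genotype is given as wild type in the labels, while the methods name as controls mice with floxed alleles without Cre, or with Alb-cre and at least 1 intact allele. The animals behind an array and their number are not given in the sources used here, and the arrays of an age are called number 1 and number 2 as in the labels.

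The fetal liver is the main site of blood formation, and its hepatocytes lie among dividing erythroblasts. Around birth the blood-forming cells leave for the bone marrow and spleen, milk replaces the glucose of the placenta, and hepatocytes switch on gluconeogenesis, fatty acid oxidation, the urea cycle, bile acid synthesis and the cytochrome P450 enzymes. Cnot3 is a subunit of the Cnot complex, which shortens the poly(A) tails of mRNAs and thereby promotes their decay. The comparison of d3 with E16.5 within Cnot3KO liver addresses how much of this perinatal switch is seen in the knockout, and the same change in control liver is given beside it.

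For the deleted gene, Cnot3, the arrays carry 2 probe sets. In the E16.5 arrays of the knockout the first had log2 intensities of 8.44 and 8.19, against 7.96 and 8.16 in the d3 arrays. The second had 8.51 and 8.65, against 7.62 and 7.66. With both probe sets the d3 arrays lay below the E16.5 arrays, with the first by a narrow margin. The change of the second, −0.94, passed the test (adjusted p = 0.000105 over all kept probe sets, limma). That of the first was −0.26 and did not pass as deposited (adjusted p = 0.142), and was −0.57 and passed after quantile normalization (adjusted p = 0.00185 over all genes). The second probe set also changed by −0.67 in control liver, and the difference between the genotypes was −0.26 and −0.27 with the 2 probe sets, with adjusted p = 0.6 and 0.537. Whether either probe set lies in the deleted part of the gene is not given in the sources used here, so the arrays neither show nor exclude the deletion.

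The labelled tissue was borne out by the hepatocyte markers, which were among the brightest signals in all Cnot3KO arrays. Alb, for serum albumin, had log2 intensities of 15.25 and 15.21 at E16.5 against 15.22 and 15.22 at d3, and Ttr, for transthyretin, 14.94, 14.95, 15.11 and 15.09. The 2 E16.5 arrays correlated at r = 0.9916 over all probe sets and the 2 d3 arrays at 0.9968, against 0.9447 to 0.9544 between the ages. Between the 2 E16.5 arrays 50 of the 16667 genes were more than 2-fold apart, 39 of them higher in number 2, and between the 2 d3 arrays 20 genes were. The arrays also differed in sex: the Y-linked Eif2s3y stood at 9.31 (log2) in E16.5 number 1, against 3.57, 3.59 and 3.62 in the other 3 Cnot3KO arrays, so 1 of the E16.5 arrays was male-like and both d3 arrays were female-like, while in control liver each age had an array of either kind. The part of sex in the results below was not tested.

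Among the genes that were higher in E16.5 number 2 were markers of gut and pancreas. Lypd8, a secreted protein of the colon epithelium, had log2 intensities of 4.27 in E16.5 number 1 and 8.69 in number 2, and 4.39 and 4.43 at d3. Dmbt1, a mucosal glycoprotein, had 3.87 and 7.58, and 4.20 and 4.93 at d3, and Ctrb1, a chymotrypsinogen of the exocrine pancreas, had 6.86 and 8.41, and 6.72 and 6.69. For each of these 3 genes 1 array stood above the other 3. Of 29 gut epithelial genes tested, 10 were more than 2-fold higher in number 2 than in number 1 and none was lower, with a median of 0.57 on the log2 scale, and of 19 pancreatic acinar genes 4 were, with a median of 0.62. The summed intensity of the pancreatic list was 2309 in number 1 and 3390 in number 2, and 1948 and 1876 at d3, while that of the gut list was 10804, 11505, 32632 and 27288, the d3 arrays being carried by genes that liver also expresses, such as Apoa4 and Krt8. Where leaving out this array changes the call of a gene given below, the value without it is given too. Where it moves a count of 3 or more calls in a list by more than 1.5 times, the count or the median without it is given.

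**Figure D1:**
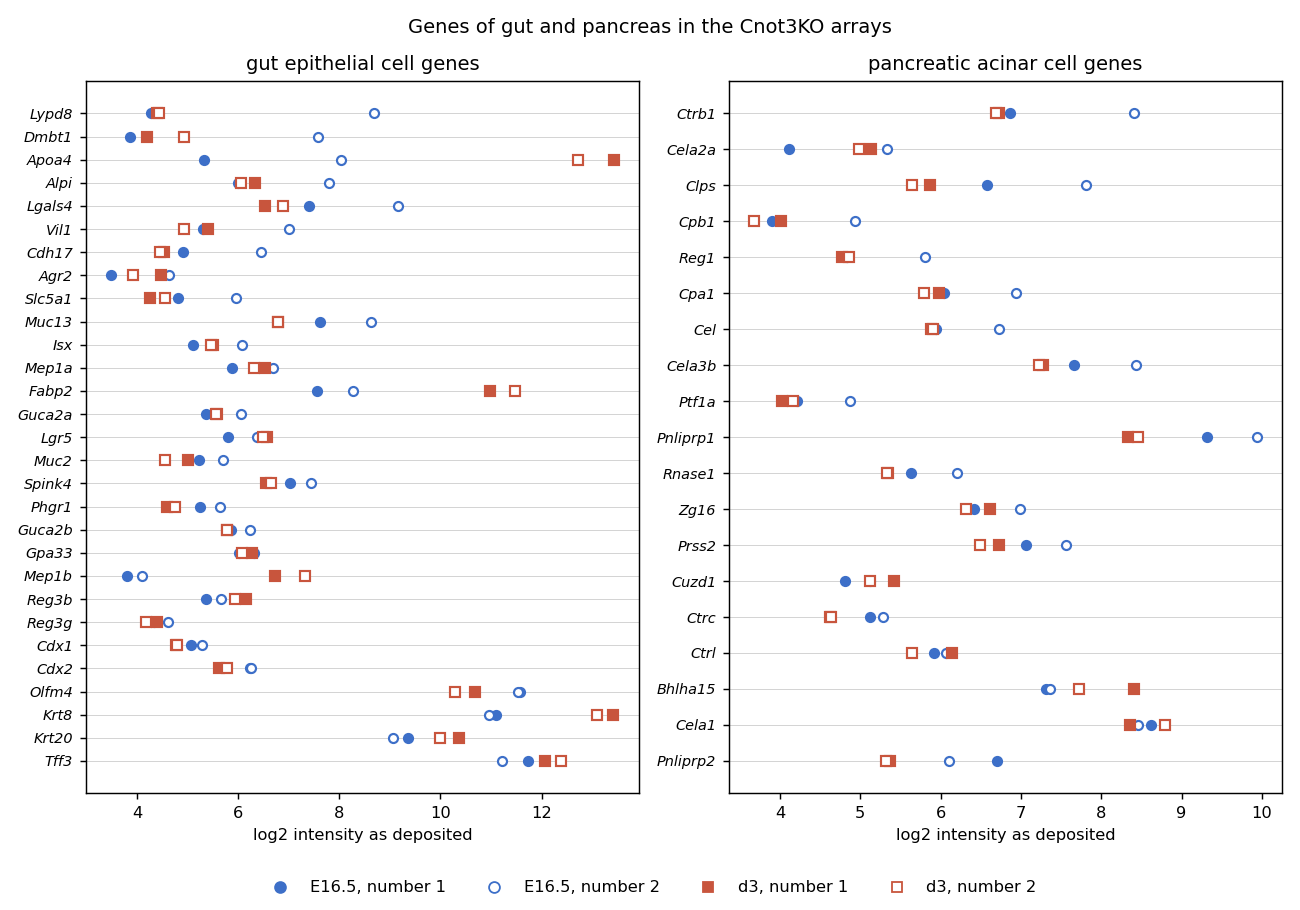
Log2 intensity as deposited (x axis) of the genes of the gut epithelial list (left) and of the pancreatic acinar list (right) in the 4 Cnot3KO arrays, with circles for E16.5, squares for d3, filled for number 1 and open for number 2, sorted from the top by how far E16.5 number 2 lies above number 1. For Lypd8 E16.5 number 2 lies at 8.69 and the other 3 arrays between 4.27 and 4.43.

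The perinatal change was wide and ran mostly upwards on the deposited scale. Of 16667 genes, each represented by its brightest probe set on average, 6253 (37.5%) were higher at d3 and 2841 (17%) were lower at an adjusted p under 0.05 (limma, Benjamini-Hochberg over all genes), and 7573 did not pass. The 2 d3 arrays lay above both E16.5 arrays for 8215 genes (49.3%), below both for 4687 (28.1%), and overlapped with them for 3765. Large changes were mainly increases: 503 called genes were more than 4-fold higher and 36 more than 4-fold lower, and 68 against 2 passed 16-fold. With no test, 2165 genes (13%) were more than 2-fold higher and 427 (2.56%) more than 2-fold lower, and after quantile normalization 1462 (8.77%) and 799 (4.79%). Without E16.5 number 2 the counts were 5617 (33.7%) and 2321 (13.9%), of which 5294 and 2124 were among those called with it, and 0 genes were called in opposite directions.

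Quantile normalization of all 8 arrays moved the whole distribution. The median log2 change of all genes was 0.16 as deposited, −0.04 after quantile normalization and 0.07 after median centring, so that the values below are to be read against a median of 0.16. After quantile normalization 4562 genes (27.4%) were higher and 4729 (28.4%) lower, and the share of calls that were higher went from 68.8% to 49.1%. Called on both scales were 4484 higher and 2823 lower genes, and 0 in opposite directions. Whether the 2 ages were normalized together before deposit is not given in the sources used here, so a change that is small beside these shifts has no settled direction.

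**Figure D2:**
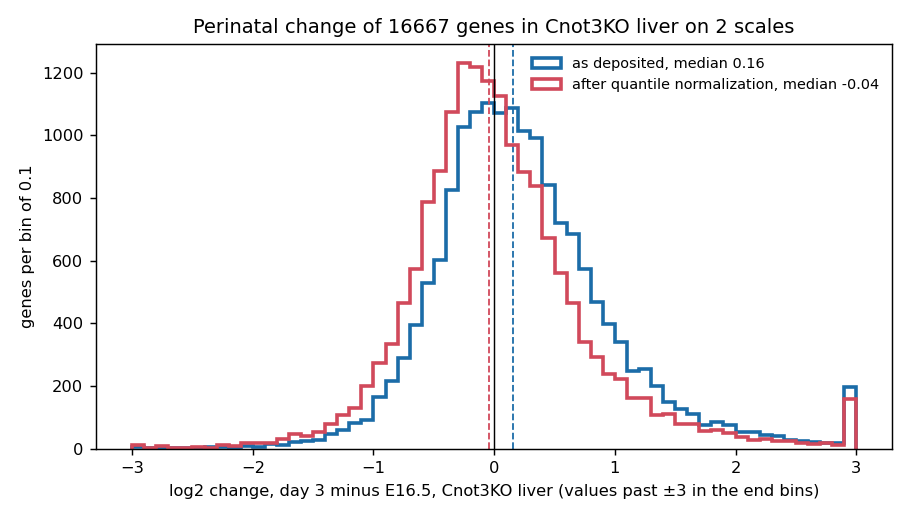
Number of genes (y axis) by log2 change from E16.5 to d3 in Cnot3KO liver (x axis, bins of 0.1, values past ±3 in the end bins) for 16667 genes, as deposited and after quantile normalization, with dashed lines at the medians. The median moves from 0.16 to −0.04, and the longer right-hand tail is seen on both scales.

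The gene lists fell into groups that rose in most members, groups that fell in most members and groups that were mixed. In the first were the enzymes of the mature hepatocyte, complement and the interferon-stimulated genes (42 of 43 higher), and in the second the red cell genes (33 of 35 lower). Other lists had calls in both directions, beside the 37.5% higher and 17% lower over all genes. Of 33 fetal liver genes 11 were higher and 8 lower as deposited (median 0.11), and 8 and 12 after quantile normalization (median −0.14), so the sign of the median depends on the scale. Of 15 glycolysis genes 4 were higher and 5 lower as deposited, and 2 and 7 after quantile normalization. Members of a list are not independent of each other, and some genes stand in more than 1 list.

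**Figure D3:**
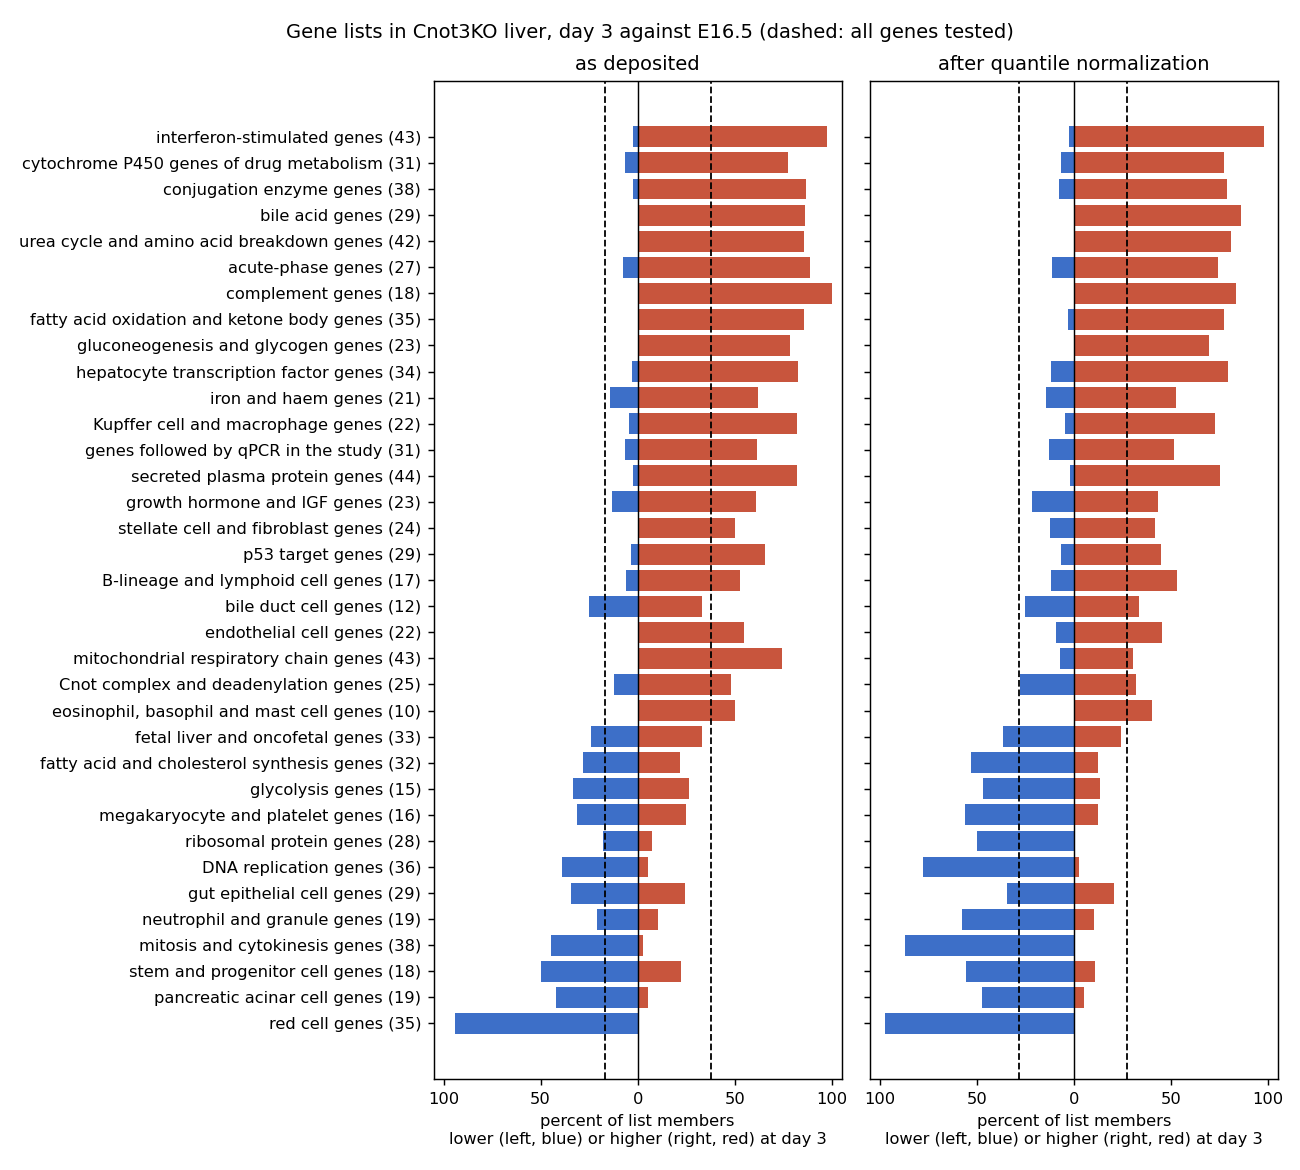
Share of the tested members of each gene list (y axis, number tested in parentheses, ordered by median change, with the sex-linked and reference genes left out) that were higher (red, to the right) or lower (blue, to the left) at d3 than at E16.5 in Cnot3KO liver, as deposited (left) and after quantile normalization (right), with dashed lines at the shares over all genes tested. The interferon-stimulated genes lie at the top with 42 of 43 higher and the red cell genes at the bottom with 33 of 35 lower on the deposited scale.

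The largest increase of all was that of Pck1, the phosphoenolpyruvate carboxykinase that commits oxaloacetate to glucose synthesis. Its log2 intensities were 3.37 and 3.33 at E16.5 against 12.69 and 13.12 at d3. The E16.5 values lay under the 20th percentile of their arrays and both d3 values above 12, and the change was 9.56 ± 0.16 (standard error, n = 2 arrays per age, adjusted p = 2.31e-11). Since an array compresses low signals, the size of such a change is less certain than its direction. G6pc, the glucose-6-phosphatase of the last step, had 4.42 and 4.82 at E16.5 against 12.12 and 12.54 at d3, a change of 7.71. Tat, which feeds tyrosine carbon into the same route, rose by 5.11, and Got1, an aspartate aminotransferase, by 2.73. Of 23 tested genes of gluconeogenesis and glycogen (26 listed) 18 were higher and 0 lower, with a median of 1.14, and after quantile normalization 16 were higher with a median of 0.74.

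Genes of fat handling changed in the same direction. Cyp4a14, a fatty acid omega-hydroxylase and a known target of PPARα, had log2 intensities of 4.67 and 4.51 at E16.5 against 12.87 and 12.96 at d3, a change of 8.33 ± 0.14 (adjusted p = 2.31e-11). Cpt1a, the carnitine palmitoyltransferase that admits long-chain fatty acids to mitochondria, went from 8.53 and 8.08 to 11.59 and 11.77, and Vnn1, a pantetheinase, from 7.43 and 7.86 to 11.28 and 10.89. The d3 arrays of all 3 genes lay more than 3 log2 units above the E16.5 arrays. Pdk4, a kinase that shuts off pyruvate dehydrogenase, rose by 2.23. Among 35 genes of fatty acid oxidation and ketone bodies 30 were higher and 0 lower (median 1.31), and after quantile normalization 27 were higher and 1 lower (median 0.98). The apolipoproteins of triglyceride-rich particles belonged to the largest changes as well: Apoa5 went from 6.75 and 6.98 to 13.48 and 13.50, and Apoc3 from 7.68 and 8.11 to 13.45 and 13.16. Apoa4, which gut also makes, had 5.33 and 8.03 at E16.5 against 13.43 and 12.72 at d3, and its change was 6.40 with E16.5 number 2 and 7.75 without it.

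Genes of lipid synthesis did not follow. Of 32 genes of fatty acid and cholesterol synthesis 7 were higher and 9 lower as deposited (median 0.08), and 4 were higher and 17 lower after quantile normalization (median −0.35), so the sign of the median depends on the scale, as it does on E16.5 number 2, without which the deposited median was −0.02. Scd1, the stearoyl-CoA desaturase, fell by 1.71 from 10.61 and 10.17 to 8.50 and 8.86, and Lss, the lanosterol synthase, fell by 1.18. Elovl5, an elongase of polyunsaturated fatty acids, rose by 2.57 and Sc5d, a late enzyme of cholesterol synthesis, by 1.19. Both decreases and both increases passed the test on both scales.

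Amino acid breakdown rose with gluconeogenesis. Tdo2, the tryptophan dioxygenase, had log2 intensities of 3.56 and 3.38 at E16.5 against 8.81 and 10.19 at d3, and its change was 6.03 ± 0.32 (adjusted p = 1.05e-07). The 2 d3 arrays were more than 2-fold apart, and both E16.5 arrays lay under the 20th percentile. Agxt, the alanine-glyoxylate aminotransferase, went from 9.10 and 8.56 to 12.99 and 13.06, and Mat1a, the hepatic methionine adenosyltransferase, from 10.70 and 10.02 to 13.45 and 13.52. In all, 36 of 42 genes of the urea cycle and amino acid breakdown were higher and 0 lower (median 1.59), and 34 and 0 after quantile normalization (median 1.17).

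Bile acid genes showed a median change of 1.92, with 25 of 29 higher and 0 lower, and the same counts after quantile normalization. Akr1c6, a hydroxysteroid dehydrogenase, went from 8.59 and 8.53 to 13.53 and 13.68. Slco1b2, a bile acid and drug uptake carrier of the sinusoidal membrane, went from 7.13 and 6.38 to 11.28 and 11.57. Abcg5, which pairs with Abcg8 to export sterols into bile, went from 5.39 and 5.50 to 9.86 and 10.21. For each the lowest d3 array was at least 4 log2 units above the highest E16.5 array. Ephx1, a microsomal epoxide hydrolase, rose by 3.91, and Nr1h4, the bile acid receptor FXR, by 2.42.

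Cytochrome P450 genes held some of the largest increases and a few members that did not move with the rest. Cyp2e1, which oxidizes ethanol and acetone, had log2 intensities of 7.29 and 6.71 at E16.5 against 14.26 and 14.29 at d3, a change of 7.28 ± 0.17 (adjusted p = 3.5e-10). Cyp3a25 went from 5.84 and 5.15 to 12.32 and 12.06, Cyp2c37 from 4.04 and 4.23 to 9.89 and 10.64, and Cyp2f2 from 6.85 and 5.85 to 11.66 and 11.79. In each of these 4 genes the ages were separated by more than 4 log2 units. The list counted 24 of 31 higher and 2 lower on both scales, with a median of 2.47 as deposited and 2.24 after quantile normalization. Nr1i3, the xenobiotic receptor CAR, rose by 3.58. Of the conjugation enzymes 33 of 38 were higher and 1 lower (median 1.98), and 30 and 3 after quantile normalization, among them Inmt, an N-methyltransferase, with 3.71 and 4.36 at E16.5 against 8.23 and 9.61 at d3, Ugt2a3, a glucuronosyltransferase, with a change of 3.80, and Ces1c, a carboxylesterase, with a change of 3.79. Gsta2, a glutathione transferase, had 5.003 and 6.11 at E16.5 against 9.22 and 9.08 at d3, and its change was 3.59 with E16.5 number 2 and 4.15 without it. Probe sets of such families, and of the globins, may read more than 1 member, which was not tested.

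Proteins that the liver secretes into plasma rose from an already high level. Of 44 genes 36 were higher and 1 lower (median 0.86), Alb and Ttr did not pass the test, and Apoa1 rose by 0.34 as deposited (adjusted p = 0.0296) but did not pass without E16.5 number 2 (0.27, adjusted p = 0.0957). Fetub, fetuin-B, went from 8.68 and 7.97 to 11.96 and 12.07, and Mug1, a murinoglobulin of the protease inhibitors, from 3.58 and 3.52, under the 20th percentile, to 10.05 and 10.37. The exception was Serpina6, the corticosteroid-binding globulin, with 13.44 and 13.41 at E16.5 against 8.74 and 9.16 at d3, a change of −4.48 ± 0.22 (adjusted p = 5.11e-08). It was the second largest decrease after that of Hbb-y, and the d3 arrays lay more than 4 log2 units below the E16.5 arrays. All 18 complement genes were higher as deposited and 15 after quantile normalization, led by Mbl2, a mannose-binding lectin, which went from 8.60 and 8.12 to 12.91 and 13.18.

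Acute-phase genes were higher in 24 of 27 members and lower in 2 (median 1.52), and in 20 and 0 without E16.5 number 2. Serpina3n went from 6.89 and 6.66 to 11.84 and 11.88, and Fgl1, a fibrinogen-like protein, from 8.93 and 8.98 to 13.37 and 13.11. Hp, haptoglobin, rose by 2.84. Hamp, which encodes the iron hormone hepcidin, had 7.90 and 8.56 at E16.5 against 13.59 and 13.33 at d3, a change of 5.23 ± 1.10 (adjusted p = 0.00201). The fit takes 1 spread from all groups, and the control arrays had 12.65 and 7.71 at d3, whereas within Cnot3KO the replicates differed by less than 1 log2 unit. Hamp2 went from 7.59 and 7.95 to 10.33 and 10.11 with this probe set, while another of its probe sets passed the test in the opposite direction. Tfr2, the second transferrin receptor and a regulator of hepcidin, rose by 2.00.

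Transcription factors of hepatocytes were higher in 28 of 34 members and lower in 1 (median 1.11), and in 27 and 4 after quantile normalization. Dbp, a circadian PAR-bZIP factor, went from 5.45 and 5.11 to 7.35 and 7.57, and Nfil3, a bZIP repressor that acts on the same sites, from 7.41 and 6.93 to 9.58 and 9.55. Genes of growth hormone and IGF action were higher in 14 of 23 and lower in 3 (median 0.57), and in 10 and 5 after quantile normalization. Igf1 had 8.58 and 8.47 at E16.5 against 10.54 and 11.26 at d3, a change of 2.37, Igfbp2 rose by 5.24 and Igfals, which carries IGF complexes in plasma, by 2.84. Igf2, the fetal growth factor, stayed near its E16.5 level with 14.12, 13.86, 14.14 and 14.18 (change 0.17, adjusted p = 0.284).

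Interferon-stimulated genes were the list with the highest median change, 3.56 as deposited and 3.27 after quantile normalization, with 42 of 43 tested members higher and 1 lower on both scales. Ifit1, which binds foreign RNA, had log2 intensities of 4.80 and 5.09 at E16.5 against 12.17 and 11.66 at d3, a change of 6.97 ± 0.27 (adjusted p = 1.03e-08). Oasl2, of the oligoadenylate synthetase family, went from 4.46 and 4.24 to 10.56 and 10.005, Ifit3 from 5.60 and 5.90 to 12.17 and 11.11, and Gbp3, a guanylate-binding GTPase, from 5.44 and 5.13 to 10.89 and 10.66. All 4 genes lay below 6 in both E16.5 arrays and above 10 in both d3 arrays. Irf7, the factor that amplifies the type I interferon response, went from 7.09 and 7.10 to 10.58 and 10.50, and Cxcl10, a chemokine induced by interferon, from 6.60 and 6.71 to 11.56 and 11.01. Nlrc5 and Tap1, which serve antigen presentation by MHC class I, rose by 3.72 and 2.93, and B2m, the light chain of class I, by 1.63. Summed over the list, the intensity was 15724 and 12800 at E16.5 against 136949 and 116312 at d3. Genes of Kupffer cells and macrophages were higher as well, with a median of 0.99, and those of lymphoid cells with a median of 0.54, and their part in this result was not tested. The arrays read whole liver, so more cells of a type and more RNA per cell cannot be told apart here or for any list below.

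Promoter windows of these genes are shown because the list moved together. In the RefSeq promoter table of build GRCm38.p6, which runs from 250 bases before to 50 bases after each gene's start, 32 of the 43 tested members had an entry, and 19 of them (59.4%) held the letters GAAANNGAA on either strand, where N is any base, against 9.76% of the 27025 genes in the table and 8.63% of the tested genes in it. Letters of this kind are found in interferon-stimulated response elements. Matches of one promoter may overlap each other, as in Ifit1 and Gbp3. The windows run 5′ to 3′ on the gene's strand, with the match in capitals.
Ifit1, chr19:34640795-34640823, plus strand: cagtctcagtTTCAGTTTCtcactgctga
Ifit3, chr19:34583398-34583426, plus strand: ttaagtctgtTTCAGTTTCtactttcctc
Gbp3, chr3:142559990-142560018, plus strand: aggacacagtTTCAGTTTCtatttcccag
Ddx60, chr8:61928024-61928052, plus strand: gtgatgaatgGAAACCGAAacttaaagct
Cxcl10, chr5:92349084-92349112, minus strand: tcacgctttgGAAAGTGAAacttacctca
The first 3 matches hold the same 9 letters, and the 5 matches shown lie at positions −213 to −44 from the gene's start. A match describes the sequence and shows no binding.

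Apart from the sex-linked transcripts, red cell genes formed the list with the lowest median change, −1.53 as deposited and −1.94 after quantile normalization, which is 1.69 and 1.90 below the median of all genes. Of 35 tested members (42 listed) 33 were lower and 0 higher, and 34 and 0 after quantile normalization. The embryonic globins led: Hbb-y had log2 intensities of 11.69 and 12.72 at E16.5 against 4.61 and 4.19 at d3, a change of −7.80 ± 0.40 (adjusted p = 7.43e-08), Hbb-bh1 went from 9.11 and 9.66 to 5.63 and 5.66, and Hba-x from 9.25 and 9.39 to 5.82 and 5.61. At d3 the 3 genes were at levels of 4.19 to 5.82, and no d3 array reached an E16.5 array. Genes of definitive red cells fell less. Alas2, the first enzyme of haem synthesis in erythroblasts, went from 12.81 and 12.75 to 11.004 and 11.30 and Slc4a1, the anion exchanger band 3, from 14.28 and 14.31 to 13.08 and 13.35, so both stayed above 10 at d3. Kel, a blood group protein, fell by 2.45. The probe set of Hba-a1, an adult alpha globin, had 4.56, 5.16, 4.83 and 4.65 and did not pass, a level far from that of the other red cell genes. Summed over the list, the intensity was 186654 and 184372 at E16.5 against 63038 and 79396 at d3.

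Of the 35 tested red cell genes 28 had an entry among these RefSeq promoters, and 9 of them (32.1%) held the letters AGATAA on either strand, of the kind that GATA factors bind, against 12.7% of all genes in the table and 9.01% of the tested genes in it. Windows of 3 of these genes are shown, again on the gene's strand with the match in capitals.
Alas2, chrX:150547321-150547346, plus strand: actttgctttTTATCTttagcagagg
Kel, chr6:41704366-41704391, minus strand: tgagaaactaAGATAAaagaggaggt
Epor, chr9:21963615-21963640, minus strand: tggctgtagcTTATCTgtccccagcc
Epor, the erythropoietin receptor, named here only because its window is shown, fell by 1.64.

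Other blood lineages did not move as one. Their counts stand beside 37.5% higher and 17% lower over all genes as deposited, and 27.4% and 28.4% after quantile normalization. Of 18 stem and progenitor genes 9 were lower and 4 higher (median −0.39), and 10 and 2 after quantile normalization: Tal1, Lmo2 and Kit, a receptor of early blood cells, fell by 1.58, 1.31 and 1.17, and Cd48 rose by 1.03. Neutrophil genes were lower in 4 of 19 members and higher in 2 as deposited, and lower in 11 and higher in 2 after quantile normalization, and without E16.5 number 2 they were lower in 8. Mpo, the myeloperoxidase of early granules, went from 12.17 and 12.20 to 11.30 and 11.41 and Elane, neutrophil elastase, fell by 0.67, whereas S100a8, a marker of mature neutrophils, had 14.34, 14.26, 14.16 and 14.07 and did not pass. The 2 members that rose were Chil3, by 1.00, and Lcn2, by 0.96, and both passed on both scales. Megakaryocyte genes were lower in 5 of 16 and higher in 4 (3 and 3 without E16.5 number 2), and lower in 9 and higher in 2 after quantile normalization. Pf4, platelet factor 4, had 11.78, 11.88, 11.26 and 11.50, a change of −0.45 that did not pass without E16.5 number 2 (adjusted p = 0.0573). Lymphoid genes were higher in 9 of 17 and lower in 1 (median 0.54), and in 9 and 2 after quantile normalization. Ms4a1, the mature B cell antigen CD20, went from 5.29 and 5.35 to 8.47 and 8.32, and Cd3g, of the T cell receptor complex, from 4.69 and 4.17 to 7.25 and 7.31, while the pre-B cell genes Vpreb1 (8.79, 7.80, 7.63 and 8.32) and Igll1 (8.81, 8.21, 7.86 and 8.26) overlapped between the ages and did not pass as deposited, and Igll1 passed after quantile normalization (−0.75) and without E16.5 number 2 (−0.75). In the list of eosinophil, basophil and mast cell genes, with 5 of 10 higher and 0 lower, Gzmb, granzyme B, which cytotoxic lymphocytes express too, rose by 3.27.

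Genes of cell division were lower in part on the deposited scale and in most members after quantile normalization. Of 38 mitosis and cytokinesis genes 17 were lower and 1 higher as deposited (median −0.36), and 33 were lower and 0 higher after quantile normalization (median −0.74). Over all genes 17% were lower as deposited and 28.4% after quantile normalization. Without E16.5 number 1 fewer members were lower as deposited, at a share near that over all genes in the same fit. The median was then −0.28, against 0.17 over all genes. Cdc25b, a phosphatase that triggers mitosis, had 11.69 and 11.58 at E16.5 against 9.69 and 10.17 at d3, a change of −1.70 ± 0.18 (adjusted p = 1.76e-05). Mki67, the Ki-67 antigen of cycling cells, had 13.13 and 13.19 at E16.5 against 12.11 and 12.59 at d3, so it fell by 0.81 and stayed above 12. DNA replication genes were lower in 14 of 36 and higher in 2 as deposited, and in 28 and 1 after quantile normalization. Without E16.5 number 1 fewer were lower as deposited, and the median was −0.16 against 0.17 over all genes. Cdc6, a loader of the replicative helicase, fell by 0.89 and Ccne1, cyclin E1, by 0.71. Rfc3, a clamp loader subunit, was the member that rose most, from 8.53 and 8.28 to 10.05 and 9.86. Of 29 p53 targets 19 were higher and 1 lower (median 0.56), and 13 and 2 after quantile normalization. Cdkn1a, the cell cycle inhibitor p21, went from 8.43 and 8.25 to 10.15 and 10.21, Fas, a death receptor, rose by 2.63 and Ddit4l by 2.18.

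Genes of the fetal liver and oncofetal list split. Dlk1, an imprinted surface protein of hepatoblasts, went from 11.44 and 11.18 to 8.32 and 8.35, a change of −2.97 ± 0.14 (adjusted p = 4.76e-08), and Cited1, a transcriptional co-regulator outside the list, fell by 2.57. Afp, alpha-fetoprotein, stayed at the top of the scale with 14.99, 15.02, 15.09 and 15.07 and did not pass. An intensity this close to the upper end of an array has little room to rise. Among genes that rose were Rgs5, a regulator of G protein signalling known from pericytes, from 3.75 and 5.33 to 8.65 and 8.94, and Akr1c18, a hydroxysteroid dehydrogenase, from 6.40 and 6.69 to 9.48 and 10.62. Of the glycolysis list, Slc2a1, the glucose transporter GLUT1, which red cells and fetal tissues use, fell by 3.19 from 13.02 and 13.25 to 10.10 and 9.81. Hk1, a hexokinase of that list, fell by 1.32. Other genes among the 15 largest decreases were Slc36a2, an amino acid transporter, with 10.14 and 9.63 at E16.5 against 7.14 and 6.86 at d3, Rtl3, a gene derived from a retrotransposon, with a change of −2.87, and Redrum, Tac2, Scml4, Gsdma2 and Ccdc92b, with changes of −2.77 to −2.53.

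**Figure D4:**
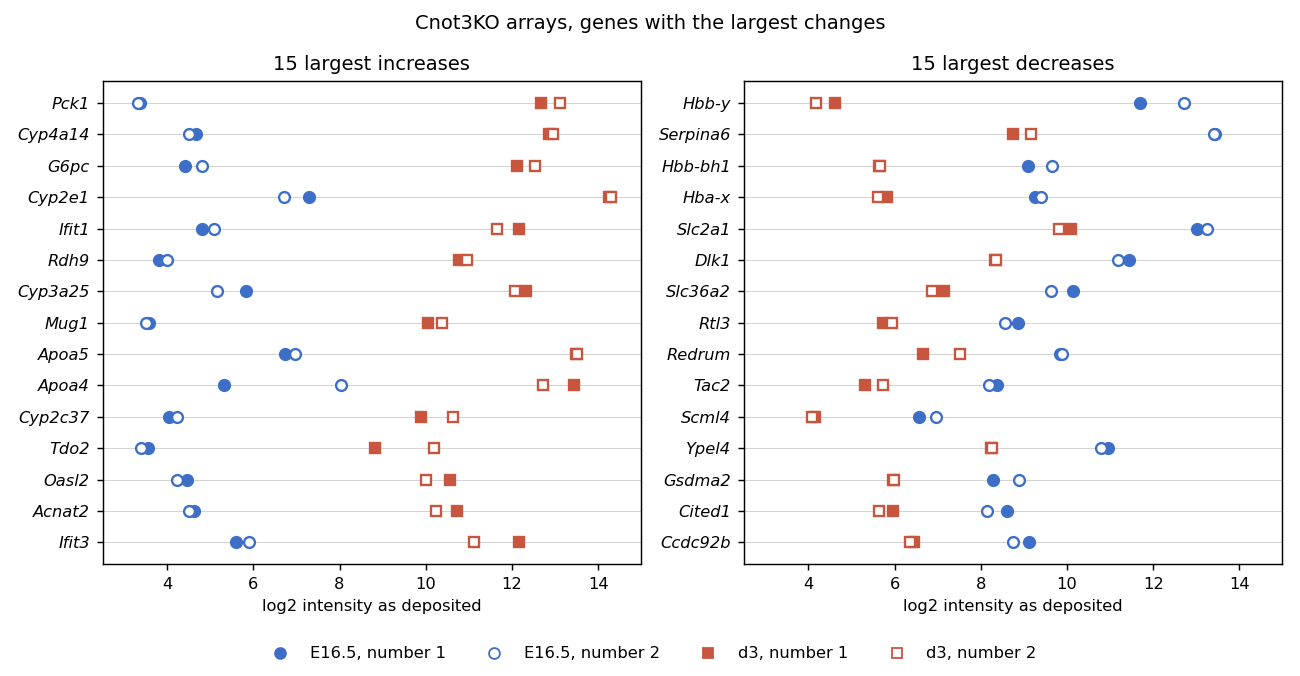
Log2 intensity as deposited (x axis) of the 15 genes with the largest increases (left) and the 15 with the largest decreases (right) in the 4 Cnot3KO arrays, with circles for E16.5, squares for d3, filled for number 1 and open for number 2. No d3 array overlaps an E16.5 array for any of the 30 genes, and Apoa4 is the gene whose E16.5 arrays are farthest apart, at 5.33 and 8.03.

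Resident cells of the sinusoid were followed by their own lists. Kupffer cell and macrophage genes were higher in 18 of 22 members and lower in 1 (median 0.99), and in 16 and 1 after quantile normalization. Vsig4, a complement receptor of Kupffer cells, went from 7.67 and 7.04 to 10.28 and 10.18, Clec4f, a lectin of the same cells, from 8.42 and 7.72 to 9.61 and 9.69, and Marco, a scavenger receptor, from 9.09 and 9.10 to 11.22 and 11.16. Endothelial genes were higher in 12 of 22 and lower in 0 (median 0.51), and in 10 and 2 after quantile normalization. The sinusoidal markers differed among themselves: Clec4g rose by 1.43 and Oit3 by 0.94, while Stab2 had 9.91, 9.45, 9.27 and 9.47 and did not pass as deposited (−0.31), but passed after quantile normalization (−0.71) and without E16.5 number 2 (−0.54). Another probe set of Clec4g passed the test in the opposite direction. Stellate cell and fibroblast genes were higher in 12 of 24 and lower in 0 (median 0.57), and in 10 and 3 after quantile normalization. Colec11 had a change of 1.70 and Ecm1 of 1.56, while Reln had 11.82, 11.63, 11.18 and 11.56 and did not pass as deposited. Des, another stellate marker, changed by −0.35 and did not pass as deposited, and by −0.66, past the test, after quantile normalization. Without E16.5 number 2 the deposited change of Des was −0.11. For Lrat, which stores retinol in stellate cells, the change was 0.94 with the brightest probe set, another probe set passed in the opposite direction, and the mean over its probe sets gave −0.065. Of 12 bile duct genes 4 were higher and 3 lower, near the 37.5% and 17% over all genes. Krt23 rose by 3.79 and Tspan8 fell by 2.03. Krt19, the keratin of duct cells, had 5.98 and 6.83 at E16.5 against 6.94 and 6.95 at d3. Its change was 0.54 with E16.5 number 2, which did not pass, and 0.97 without it.

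The lists of gut and pancreas depended on E16.5 number 2. With it, 7 of 29 gut genes were higher and 10 lower (median −0.27), beside 37.5% and 17% over all genes. Without it the shares lay near those over all genes in that fit, and the median was 0.15 against 0.16. Without number 1 instead the median was −0.50. Cdh17, a gut cadherin, had 4.90 and 6.46 at E16.5 against 4.54 and 4.46 at d3, and its change of −1.18 passed with the array (adjusted p = 0.0159) and did not pass without it (−0.40, adjusted p = 0.0674). Lgals4, a galectin of gut epithelium, behaved likewise, with −1.57 and −0.69. Muc13, a mucin, was lower with and without the array (−1.33 and −0.82), as was Cdx2, a transcription factor of gut epithelium (−0.55 and −0.53). Of 19 pancreatic genes 8 were lower and 1 higher with the array (median −0.57). Without it the median was −0.12, against 0.16 over all genes, and without number 1 instead it was −0.83. Clps, colipase, had 6.58 and 7.81 at E16.5 against 5.87 and 5.65 at d3 and was lower in both settings, and Epcam, an antigen of duct and gut epithelium that was listed with the bile duct genes, had 6.14 and 8.78 at E16.5 against 8.998 and 8.05 at d3 and passed only without the array (1.06 with it and 2.38 without it).

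Of 25 genes of the Cnot complex and of deadenylation 12 were higher and 3 lower as deposited (median 0.30), and 8 and 7 after quantile normalization (median 0.04), where the shares over all genes were 27.4% higher and 28.4% lower, so on that scale the list lay near the background. Among the catalytic subunits Cnot6l rose by 0.78, Cnot7 by 0.48 and Cnot8 by 0.49, of which Cnot6l passed after quantile normalization (0.36) and Cnot7 and Cnot8 did not (Cnot8 did not pass without E16.5 number 2 either, with 0.33), and Cnot6 had a change of −0.30 as deposited and −0.74 after quantile normalization, past the test on the second scale. Cnot2, a scaffold partner of Cnot3, rose by 0.74 as deposited and by 0.33 after quantile normalization. The largest changes belonged to regulators that recruit the complex: Tob1 went from 9.70 and 9.60 to 11.62 and 11.77, Btg1 from 11.13 and 10.95 to 12.61 and 12.64, and Zfp36, which binds AU-rich elements, from 8.61 and 8.003 to 9.29 and 9.44. These 3 genes passed on both scales.

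Genes that the study followed by qPCR, a list chosen by its authors, were higher in 19 of 31 members and lower in 2, and in 16 and 4 after quantile normalization. Beside those given above, Igfbp1, an IGF-binding protein, went from 13.37 and 13.36 to 14.58 and 14.63 and Cd44, an adhesion receptor, from 9.62 and 9.57 to 10.92 and 11.06, and Herc6, of the interferon-stimulated genes, rose by 3.71. Proz, protein Z of coagulation, rose by 1.59, Pcca, of propionate breakdown, by 1.41, Sod2, the mitochondrial superoxide dismutase, by 1.13, and Aldh2, which oxidizes acetaldehyde, by 0.98. Kif23, of the centralspindlin complex, fell by 0.62. Aldoa, Cdc25a and Klkb1 rose by 0.80, 0.48 and 0.85 as deposited and passed there. After quantile normalization their changes were 0.36, 0.05 and 0.42 and did not pass. Without E16.5 number 2 the deposited change of Klkb1 was 0.50. Klf6, Bicc1, Ivd, Ect2, Chek1 and Brca1 had changes of 0.11 to 0.35 as deposited and did not pass on either scale. After quantile normalization Klf6 had 0.01 and the others had −0.26 to −0.07. Another probe set of Brca1 passed the test in the opposite direction. Cdt1, which licenses replication origins, and Iqgap1, a scaffold of the cell cortex, had 0.08 and 0.07 as deposited. After quantile normalization they had −0.37 and −0.36, past the test. Iqgap1 too had a probe set past the test in the opposite direction.

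Housekeeping functions marked the size of the scale effect. Of 43 genes of the mitochondrial respiratory chain 32 were higher and 0 lower as deposited (median 0.47), and 13 were higher and 3 lower after quantile normalization (median 0.08). Ndufs4, of complex I, rose by 1.49 and by 1.09 on the 2 scales. Of 28 ribosomal protein genes 2 were higher and 5 lower as deposited (median −0.16), beside 37.5% and 17% over all genes. After quantile normalization 0 were higher and 14 lower (median −0.25), beside 27.4% and 28.4%. As deposited, both d3 arrays lay below both E16.5 arrays for 22, beside 28.1% of all genes. The 5 became 2 and 3 without E16.5 number 1 and number 2, and Rplp0, a common reference, had 14.31, 14.36, 13.87 and 14.00. Iron and haem genes were higher in 13 of 21 and lower in 3 as deposited.

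The same genes were then compared with control liver, where, unlike in Cnot3KO, 1 of the 2 d3 arrays was male-like. In control liver 5415 genes (32.5%) were higher and 2293 (13.8%) lower at d3, with a median change of 0.12. Called higher in both genotypes were 4547 genes, 72.7% of those higher in Cnot3KO and 84.0% of those higher in control, and called lower in both were 1751, 61.6% and 76.4%, while 27 were called in opposite directions. Over the 16667 genes the changes of the 2 genotypes, which share no array, correlated at r = 0.883 and rho = 0.853. Genes are not independent replicates, so no p is given.

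The difference between the changes, tested as an interaction, was higher in Cnot3KO for 399 genes (2.39%) and lower for 40 (0.24%). After quantile normalization the counts were 279 (1.67%) and 48 (0.288%), with 274 and 33 called on both scales. Of the 399 genes 386 were also called higher at d3 in Cnot3KO and 2 lower, and 240 were called higher in both genotypes. These counts rest on single arrays: the 399 became 172 without Cnot3KO E16.5 number 2, 160 and 165 without control E16.5 number 1 and number 2, 151 and 232 without control d3 number 1 and number 2, and 119 and 260 without Cnot3KO d3 number 1 and number 2, while the 40 became 18 and 8 without control E16.5 number 1 and number 2, 7 without control d3 number 1, 5 without Cnot3KO d3 number 1 and 122 without Cnot3KO E16.5 number 1. A fit of this kind leaves 1 group with a single array, whose spread is taken from the other groups.

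Interferon-stimulated genes supplied 36 of the 399. With its sign, the change was higher in Cnot3KO than in control for all 43 members, with a median of 3.56 against 1.58. In control 40 members were higher and 1 lower. Ifit1 had log2 intensities of 4.69 and 5.04 at E16.5 against 7.32 and 8.24 at d3 in control, so it rose by 2.92 there and by 6.97 in Cnot3KO, a difference of 4.06 ± 0.38 (adjusted p = 0.00075). The E16.5 arrays of the 2 genotypes lay within 0.5 of each other, and the d3 arrays did not overlap. The differences of Ifit3, Ifit1bl1, Ddx60, Oasl2 and Gbp3 were 3.72, 3.36, 3.08, 2.98 and 2.82.

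Outside that list the largest differences were those of Glod5, with 9.25 and 8.65 at d3 in Cnot3KO and 5.53 and 5.82 in control, Orm1, the acute-phase orosomucoid, with 9.31 and 8.62 against 5.52 and 5.85, and Mmp13, a collagenase, with 7.49 and 6.89 against 4.09 and 4.33. For all 3 the d3 arrays of the genotypes did not overlap. Cox7a1, a subunit of cytochrome c oxidase known from muscle, rose by 2.02 in Cnot3KO and changed by −1.003 in control. Serpina6 fell by 4.48 in Cnot3KO and by 6.66 in control. Of 29 p53 targets 6 had a larger change in Cnot3KO past the test and 0 a smaller one, beside 2.39% and 0.24% over all genes, and 3 after quantile normalization and 3 without Cnot3KO E16.5 number 2, among the 6 Cdkn1a with a difference of 1.51 (adjusted p = 0.0152).

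Smaller changes in Cnot3KO were fewer. Of the 40 genes 35 were called higher in control liver, and in Cnot3KO 22 were called higher, 6 lower and 12 did not pass. Cyp2c54 had 7.10 and 8.07 at d3 in Cnot3KO and 9.37 and 9.65 in control, Serpina7, the thyroxine-binding globulin, 8.81 and 9.67 against 11.14 and 11.58, and Homer2, a scaffold protein, 6.88 and 7.86 against 9.24 and 9.25. The 3 genes rose by 4.61, 4.31 and 2.35 in control, and in Cnot3KO the first 2 rose by 2.62 and 2.47 and Homer2 had a change of 0.56 (adjusted p = 0.0672), with both of its other probe sets past the test in the opposite direction. Cyp2c54 and Serpina7 did not pass the test of the difference after quantile normalization (adjusted p = 0.0529 and 0.0741). Pdxk, the pyridoxal kinase, rose by 0.74 against 2.22, and Npr3, a natriuretic peptide receptor, had 0.13 against 1.60.

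Metabolic lists had few members past the test of the difference, which 2.39% of all genes passed in the higher and 0.24% in the lower direction. It was 1 higher and 0 lower of 35 genes of fatty acid oxidation, 1 and 0 of 42 of the urea cycle and amino acid breakdown, 2 and 0 of 29 bile acid genes, 1 and 2 of 31 cytochrome P450 genes (1 and 1 after quantile normalization, 0 and 0 without Cnot3KO E16.5 number 2) and 2 and 0 of 23 of gluconeogenesis and glycogen. After quantile normalization the bile acid and gluconeogenesis lists each had 1 and 0. Red cell genes had a median change of −1.53 in Cnot3KO and −0.99 in control, and mitosis genes −0.36 and −0.57. With its sign, the change was higher in Cnot3KO than in control for 1 of 35 red cell genes and for 33 of 38 mitosis genes. Over all genes the median difference was −0.0025. In both lists 0 members passed the test of the difference. With 2 arrays per group a difference that did not pass is not shown to be absent.

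**Figure D5:**
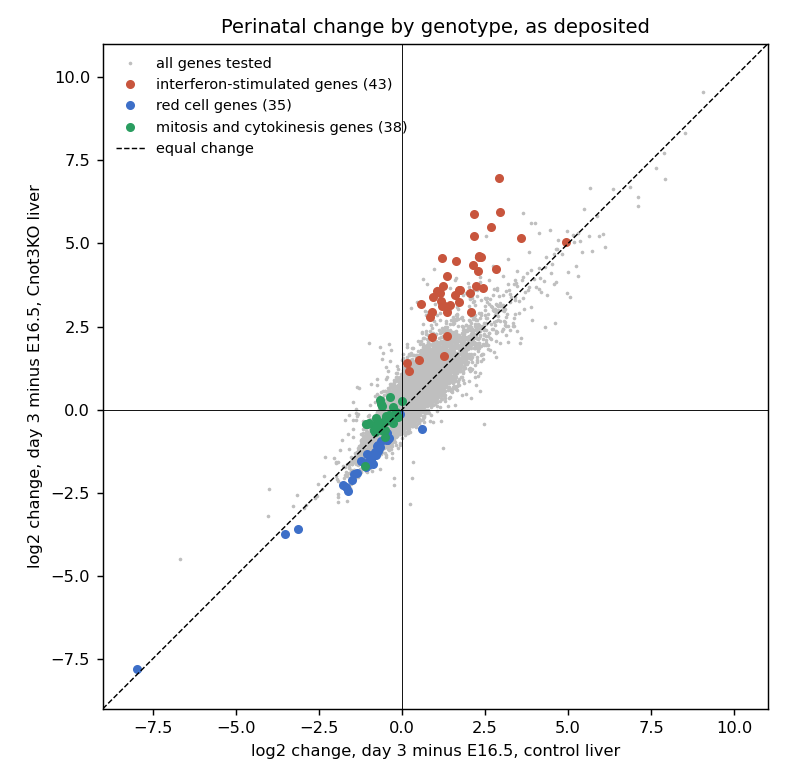
Log2 change from E16.5 to d3 in Cnot3KO liver (y axis) against that in control liver (x axis) for 16667 genes as deposited (grey points), with the interferon-stimulated genes (red), the red cell genes (blue) and the mitosis and cytokinesis genes (green), and a dashed line of equal change. Interferon-stimulated genes lie above the line, with Ifit1 at 2.92 in control and 6.97 in Cnot3KO, and the bulk of the genes lies along it.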

How the data were processed

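Liver RNA of 8 samples was hybridised to Affymetrix GeneChip mouse arrays, 1 array per sample and 2 per genotype and age. The deposited values are linear intensities per probe set, which the authors summarised by RMA (background correction, quantile normalization and probe summary) per the labels; whether both ages were normalized in 1 run is not given in the sources used here. Log2 was taken of them, since they were linear and not log2 as the working rule had assumed. A probe set was kept where 1 array or more gave it a value no lower than that array's 20th percentile (38440 kept, 6597 removed). Gene names came from the platform annotation, in which 34945 probe sets had 1 symbol, 932 several and 9160 none. Each of 16667 genes was represented by the probe set whose mean across all arrays was highest. Groups were taken from the sample labels, and numbers 1 and 2 at the 2 ages belong to different animals and were not used as pairs. A linear model of the 4 groups was fitted with lmFit and eBayes of limma 3.58.1 in R 4.3.3 (4 residual and 7.073 prior degrees of freedom), with adjustment by Benjamini-Hochberg over all genes and a threshold of 0.05. The code was tested on simulated data. The small number of arrays limits the precision, and nothing states that the arrays of a group came from separate litters, so p-values measure the spread between these arrays only.

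Members, gene lists and tests were chosen with earlier results of these data known, and lists are described by counts and medians without a test of the list. Named were the 15 largest increases and 15 largest decreases past the test on both scales and without Cnot3KO E16.5 number 2, up to 4 members per list with the largest change past the test, defining cell markers, the genes followed by qPCR, the Cnot subunits, and the 8 largest differences between genotypes in each direction. Alternatives were quantile normalization of all arrays, median centring, filters, the mean over probe sets, other variance settings, the methods' t-test, a block for the number and leaving out each array.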

Additional observations from a re-analysis of the deposited data

Results flagged for a closer look

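The change from E16.5 to d3 differed between Cnot3KO and control liver in 33 of the named genes by the test of the difference itself (limma, adjusted p under 0.05 over all genes), given here as the change in Cnot3KO minus that in control on the log2 scale. Among interferon-stimulated genes the differences were Ifit1 4.06, Ifit3 3.72, Ifit1bl1 3.36, Ddx60 3.08, Oasl2 2.98, Gbp3 2.82, Herc6 2.47, Cxcl10 2.30, Irf7 1.86, Tap1 1.58 and Nlrc5 1.48. Each of these genes rose in both genotypes. Other larger values in Cnot3KO were Glod5 3.28, Orm1 3.28, Mmp13 3.05, Cox7a1 3.02, Cyp4a12a 2.36, Acnat2 2.28, Serpina6 2.18, Cdkn1a 1.51, Pfkp 1.42, Mep1b 1.41, Nfil3 1.27, Gzmb 1.10 and Rfc3 0.998. For Serpina6 the positive sign stands for a smaller fall, and Cox7a1 changed by −1.003 in control and rose in Cnot3KO by 2.02. Smaller values in Cnot3KO were Cyp2c54 −1.996, Serpina7 −1.84, Homer2 −1.79, Prox1os −1.54, Gm16551 −1.53, Pdxk −1.48, Pcp4l1 −1.48, Npr3 −1.47 and Rdh9 −0.98. Of these, Prox1os had a change of −0.35 in Cnot3KO and 1.19 in control, and Rdh9 rose in both, by 6.95 and 7.92. After quantile normalization 5 of the 33 differences did not pass the test, namely Pfkp (adjusted p = 0.0528), Cyp2c54 (0.0529), Gzmb (0.0659), Serpina7 (0.0741) and Prox1os (0.0908). Both other probe sets of Homer2 passed the test of the change in Cnot3KO in the opposite direction.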

How the results depend on the processing

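Quantile normalization raised the lower calls from 2841 to 4729. It reversed 2 of 264 named genes, Cdt1 (−0.37) and Iqgap1 (−0.36), and 241 kept their side of the threshold. Reversals were counted only for genes called in either fit. Some genes with no call on either scale changed sign too, such as Brca1 (0.26 and −0.15) and Ect2 (0.17 and −0.26). Under the mean over all probe sets Lrat was reversed (−0.065). Counting every kept probe set gave 11901 higher and 7562 lower, and 9158 and 10969 after quantile normalization, since there were more features. A 2-fold limit with no test gave 2165 and 427, and 1462 and 799. The methods' t-test gave 1792 lower at its unadjusted threshold, and after Benjamini-Hochberg 3 higher and 2 lower as deposited and 595 and 507 after quantile normalization, and the cause was not tested. A variance prior with trend, robust, gave 599 higher and 75 lower differences between genotypes.

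Leaving out 1 array at a time gave 4981 to 6261 higher and 1909 to 3055 lower genes, 3489 to 4510 and 3382 to 4730 after quantile normalization, and 119 to 592 higher and 5 to 122 lower differences between genotypes. Without Cnot3KO E16.5 number 2, which leaves a single array in that group, some gut genes with no call changed sign. Lypd8 had −2.07 with the array and 0.14 without it, Dmbt1 −1.16 and 0.70, and Alpi −0.70 and 0.20. Others kept their sign, such as Clps of the pancreatic list (−1.44 and −0.82).

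With a replicate block for the number, which does not pair the animals, the counts were 6218 and 2811, 4595 and 4724 after quantile normalization, and 400 and 43 for the difference. Deviations of same-numbered arrays correlated at −0.19 between the ages in Cnot3KO and −0.02 in control, and between the genotypes at 0.44 at E16.5 and 0.14 at d3, and a crossed block in the 4 Cnot3KO arrays, chosen after seeing the data, gave 6439 and 3098, and 4632 and 4910. Low signals limit the fold size: 460 genes lay under the 20th percentile in both Cnot3KO E16.5 arrays, 278 of them called higher.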
